A study of Mus musculus with 17 samples.

Results

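The genes described here are *Usb1* and the factors that make, protect and bind the 3′-end of U6 snRNA, namely *Tut1*, *Ssb* and *Lsm2* to *Lsm8*. They were chosen by gene symbol, which gave 10 genes of the 54532 listed. All 10 passed the filter on low values, at least 1 TPM, a transcript level normalised for gene length and depth, in 2 or more libraries, as did 21871 genes in all. R1 mouse embryonic stem cells (R1/E) were profiled as wild-type and *Usb1* knockout cells without retinoic acid (RA) at day 0, and after RA treatment for 1 day and for 3 days. Wild-type cells at day 0 had 2 libraries and each of the other 5 groups had 3, which makes 17. The knockout libraries came from a single CRISPR/Cas9 line, KO-1, so the loss of *Usb1* and other differences of that clone cannot be told apart. The labels do not say whether replicates were separate cultures, whereas the study's methods call them independent biological replicas.

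U6 snRNA is made by RNA polymerase III and sits in the catalytic centre of the spliceosome. The La protein, encoded by *Ssb*, binds the run of uridines at the end of newly made U6. TUT1, a terminal uridylyl transferase, lengthens this run. USB1, a 3′ exonuclease of the 2H phosphoesterase family, trims it and leaves a cyclic phosphate on the last uridine. The ring of the proteins LSM2 to LSM8 then binds the matured end and helps U6 to assemble with its partners. LSM8 is the subunit that distinguishes this nuclear ring from a cytoplasmic ring in mRNA decay, in which LSM1 takes its place. The question behind the comparisons is whether the other factors changed when *Usb1* was disrupted.

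The tail of U6 itself was not measured in these data, and 477 of the 1385 listed snRNA genes were above 0 in any library. How reads that match several near-identical U6 copies were treated is not given in the sources used here. The values below are the mRNA levels of the proteins that act on U6.

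Reads on genes numbered 15404379 to 17300186 per library. Wild-type replicate 1 at day 0 stood apart, with 239 genes of 1 read, and so did wild-type replicate 2 at day 0 with 1352 and knockout replicate 1 at day 3 with 1224, against 2150 to 2467 in the other libraries. The embryonic stem cell label was checked against *Pou5f1*, *Nanog*, *Sox2*, *Zfp42*, *Esrrb* and *Klf4*, whose summed level at day 0 was 5063 to 5152 TPM in wild-type and 4927 to 5394 TPM in knockout cells. The 5 markers of feeder fibroblasts summed to 4.79 to 6.41 TPM in wild-type and 6.96 to 9.01 TPM in knockout cells at day 0, and to 30.0 to 37.8 TPM and 57.0 to 66.2 TPM at day 3, where the 4 tested passed as higher. Markers of the RA response differed already at day 0, at 32.5 to 36.8 TPM in wild-type and 15.3 to 17.5 TPM in knockout cells. At day 3 the pluripotency markers summed to 312 to 353 TPM in wild-type and 509.9 to 578 TPM in knockout cells, and 5 endoderm markers to 492 to 535 TPM and 242 to 279.7 TPM. The 5 neuroectoderm markers summed to 89.1 to 97.2 TPM and 114 to 133 TPM at day 3. At that day 5 of the 6 pluripotency markers passed as higher and *Klf4* as lower in knockout cells, and 3 of 6 markers of the RA response as lower. Another of these, *Crabp2*, did not pass (limma adjusted p = 0.0811) and averaged 85.5 ± 13.8 TPM (SD, n = 3) in the wild-type libraries against 139.7 ± 8.69 TPM in the knockout libraries. In knockout cells at day 1, 3 pluripotency markers passed as higher and 4 RA markers as lower. Not all moved this way. *Sox2* averaged 735 ± 30.6 TPM (SD, n = 3) in the wild-type and 644 ± 1.73 TPM in the knockout libraries of day 1. *Klf4* averaged 61.8 ± 2.77 and 63.7 ± 5.03 TPM, and the RA marker *Cyp26a1* 111 ± 7.09 and 110 ± 5.13 TPM. Of all genes tested in knockout against wild-type cells, 17.3% passed in either direction at day 1 and 3.74% as higher. At day 3 these shares were 7.52% and 3.96%. The part of these marker differences in the results below was not tested.

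*Usb1* mRNA was reduced but not lost in the knockout line. The gene (ENSMUSG00000031792) spans chr8:95332284-95347507 on the plus strand, and no other annotated gene overlaps its exons. At day 0, *Usb1* stood at 39.95 and 37.1 TPM in wild-type libraries and at 15.5, 15.2 and 17.9 TPM in knockout cells. The wild-type libraries of day 1 gave 56.9, 48.6 and 51.9 TPM, and the knockout libraries 20.7, 21.4 and 18.5 TPM. Those of day 3 gave 33.7, 32.0 and 35.8 TPM, against 14.7, 17.2 and 20.4 TPM. All knockout libraries lay below all wild-type libraries of the same day. As fold changes on the log2(TPM + 1) scale, which understates the change of low genes, the difference of knockout from wild-type was −1.20 (SE 0.12, adjusted p = 3.23e-05) at day 0, −1.34 (SE 0.11, adjusted p = 1.97e-06) at day 1 and −0.93 (SE 0.11, adjusted p = 9.37e-05) at day 3, by limma with Benjamini-Hochberg adjustment over all genes tested. On that scale the level in knockout cells was 43.4% of wild-type at day 0 (95% interval 36.3% to 51.9%), 39.6% at day 1 (33.8% to 46.5%) and 52.6% at day 3 (44.9% to 61.7%). The fall in *Usb1* was not shown to differ between days, with interaction values of −0.13 (adjusted p = 0.709) from day 0 to day 1, 0.28 (adjusted p = 0.331) from day 0 to day 3 and 0.41 (adjusted p = 0.129) from day 1 to day 3 in limma. Between 200 and 726 reads per library lay behind these values. Reads are summed over the whole gene, so a transcript with a frameshift is counted like an intact one.

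**Figure D1:**
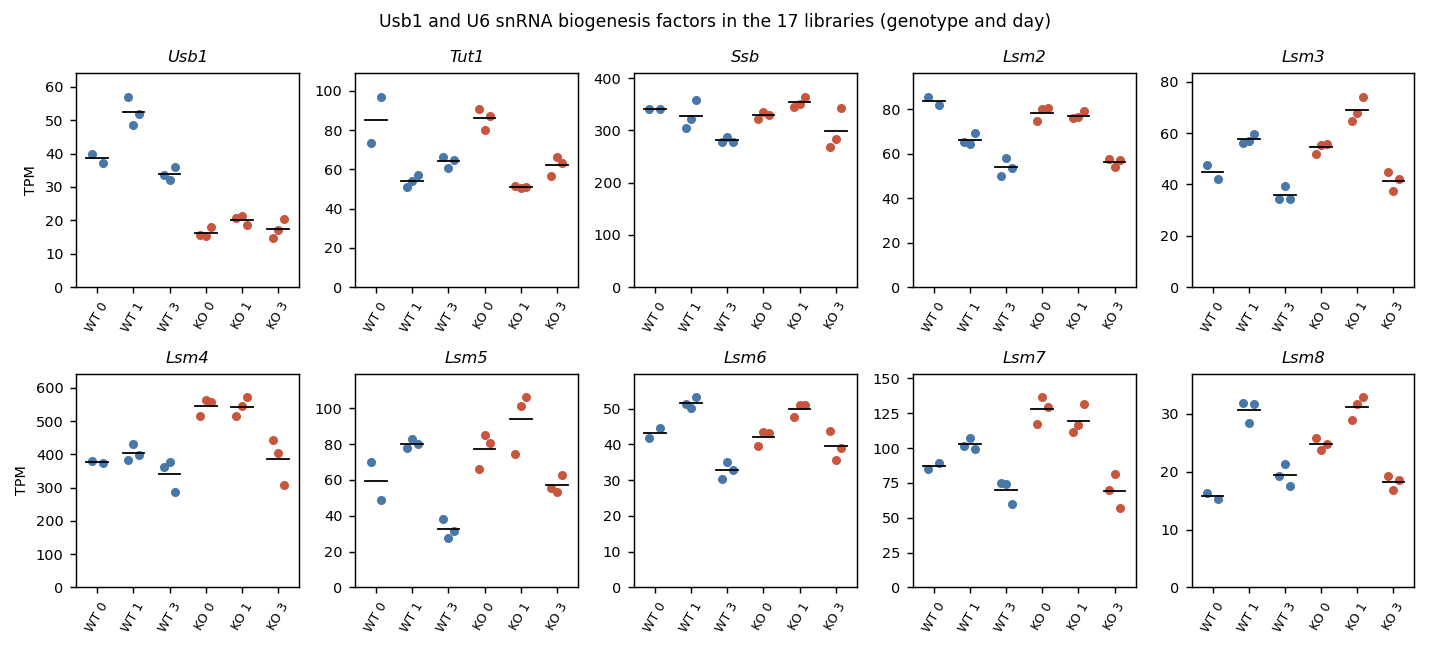
TPM of each of the 10 genes (y axis, starting at 0) by genotype and day (x axis; WT, wild-type in blue; KO, *Usb1* knockout in red). Each point is a library and each line the mean of a group. *Usb1* lies between 14.7 and 21.4 TPM in the 9 knockout libraries and between 32.0 and 56.9 TPM in the 8 wild-type libraries.

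*Tut1*, whose product adds the uridines that USB1 removes, did not pass the test in the knockout line at any day. *Tut1* (ENSMUSG00000071645, chr19:8953847-8966210, plus strand) stood at 73.6 and 96.8 TPM in wild-type libraries and at 90.6, 80.2 and 87.4 TPM in knockout cells at day 0. The wild-type libraries at day 0 bracketed the knockout libraries. The wild-type libraries of day 1 gave 51.1, 54.3 and 56.9 TPM and the knockout libraries 51.6, 50.3 and 51.1 TPM. For day 3 these were 66.5, 60.9 and 64.8 TPM and 56.5, 66.2 and 63.4 TPM. The groups overlapped at each day. Averaged over the 3 days, the difference was −0.03 (SE 0.05, limma adjusted p = 0.704), with a 95% interval from −0.15 to 0.08 on the log2 scale. The ratio of *Tut1* to *Usb1* TPM was 1.84 and 2.61 in wild-type cells at day 0 and 4.89 to 5.86 in knockout cells. It was 0.898 to 1.12 against 2.35 to 2.76 at day 1 and 1.81 to 1.97 against 3.11 to 3.85 at day 3. The reads recovered for *Tut1* were not whole numbers with the exon length used here, so its length in the authors' table may differ, which would leave comparisons between libraries as they are.

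*Ssb*, the gene for La, which shields the uridine end, did not pass at any day either. *Ssb* (ENSMUSG00000068882, chr2:69861562-69871846, plus strand) stood at 340.2 and 342 TPM in wild-type libraries at day 0 and at 322, 336 and 329 TPM in knockout cells. The wild-type libraries of day 1 gave 305, 322 and 358 TPM and the knockout libraries 346, 351 and 364 TPM. For day 3 these were 278, 287 and 278 TPM and 268, 283 and 343 TPM. Only at day 0 were the groups apart, with *Ssb* lower in the knockout libraries, and 36.6% of all genes tested were apart at that day. The limma adjusted p was 0.742, 0.383 and 0.677 for *Ssb* at days 0, 1 and 3, and the difference at day 1 passed only with libraries scaled to an equal median (0.35, adjusted p = 0.0316). Averaged over the days, the difference was 0.05 (SE 0.05, limma adjusted p = 0.535, 95% interval −0.05 to 0.14). Of its exons, 600 bases are shared with *Mettl5* and *Gm13625* on the other strand, and the library kit does not mark strand, so reads there cannot be told apart.

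Of the 7 genes of the LSm ring, 5 were higher in the knockout line in the mean of the 3 days, by small amounts. These were also the only members other than *Usb1* to pass, so that 5 of 9 passed as higher and 0 as lower in limma (adjusted p under 0.05), beside 21.5% of all genes tested that passed in either direction and 7.26% that passed as higher. The 5 were *Lsm3*, *Lsm4*, *Lsm5*, *Lsm7* and *Lsm8*, and none reached a 2-fold change, which 0.837% of all genes tested did. *Lsm3*, *Lsm4* and *Lsm5* had values above 0 at each day. *Lsm8* was at 0.62, 0.02 and −0.08 at days 0, 1 and 3, and *Lsm7* at 0.55, 0.22 and −0.01. For *Lsm8* the mean thus rests on day 0, where wild-type cells had 2 libraries. The log2 fold changes of the 7 ring genes ran from 0.06 to 0.47, with a median of 0.24, against a median of −0.05 over all genes tested. *Lsm2*, at 0.06 (SE 0.04, adjusted p = 0.238), and *Lsm6*, at 0.06 (SE 0.05, adjusted p = 0.405), did not pass in limma. Behind each value of the ring genes lay 104 to 438 reads per library for *Lsm5*, the fewest, and 1286 to 3091 for *Lsm4*, the most. The count was 5 whichever library was left out. It was 4 without wild-type replicate 1 at day 0 and knockout replicate 1 at day 3 together, where *Lsm7* did not pass (adjusted p = 0.0681, limma).

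**Figure D2:**
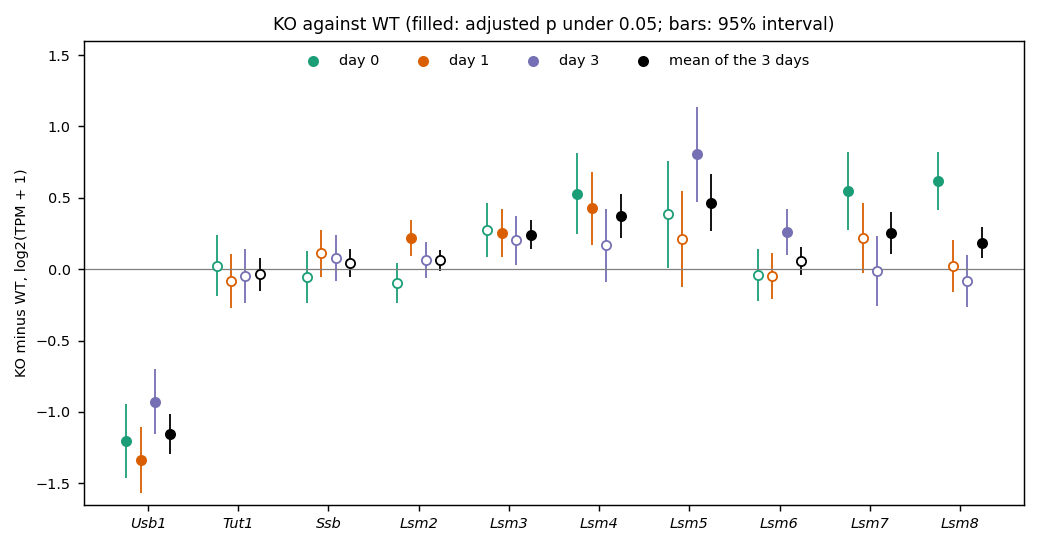
Difference of *Usb1* knockout from wild-type on the log2(TPM + 1) scale (y axis) for each gene (x axis), at day 0, day 1, day 3 and as the mean of the 3 days. Bars are 95% intervals and filled points passed at adjusted p under 0.05 in limma. *Usb1* lies between −1.34 and −0.93, and the other genes between −0.10 and 0.80.

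At day 0, 3 of the 9 other members passed, all as higher, against 11.9% of all genes tested in either direction and 5.08% as higher. *Lsm8*, which marks the nuclear ring, showed the largest change of them (ENSMUSG00000044155, chr6:18848579-18855751, plus strand). The wild-type libraries stood at 16.4 and 15.2 TPM and the knockout libraries at 25.9, 23.7 and 24.8 TPM. Every knockout library was above both wild-type libraries, and the log2 fold change was 0.62 (limma adjusted p = 0.00117, SE 0.10). The groups of day 0 were apart, in either direction, for 36.6% of all genes tested. *Lsm7*, a core subunit of both rings (ENSMUSG00000035215, chr10:80852821-80855209, minus strand), stood at 84.7 and 89.1 TPM in wild-type libraries and at 117, 136 and 129 TPM in knockout cells. Its groups did not overlap either, with a log2 fold change of 0.55 (limma adjusted p = 0.0145, SE 0.13). *Lsm4*, another shared subunit (ENSMUSG00000031848, chr8:70673248-70678752, plus strand), stood at 381 and 375 TPM in wild-type libraries and at 515, 564 and 559 TPM in knockout cells. The log2 fold change of *Lsm4* was 0.53 (limma adjusted p = 0.0208, SE 0.13). In *Lsm3* the knockout libraries, at 52.0, 55.4 and 55.8 TPM, were likewise above the wild-type ones, at 47.7 and 42.2 TPM, but its log2 fold change of 0.27 did not pass (adjusted p = 0.0612, limma). *Lsm5* overlapped between the genotypes, and *Lsm2* and *Lsm6* had log2 fold changes of −0.10 and −0.04.

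These calls at day 0 rest on few libraries. In a fit of the 5 libraries of day 0 alone, 0 members other than *Usb1* passed, against 4 at an unadjusted p under 0.05, and *Lsm8* had a limma adjusted p of 0.057. Of the 3, *Lsm8* alone passed when wild-type replicate 1 or knockout replicate 2 was left out, and *Lsm7* and *Lsm8* without knockout replicate 3. Both wild-type libraries of day 0 had few genes of 1 read, at 239 and 1352. The knockout libraries of that day had 2361, 2150 and 2243. The part of this in the calls at day 0 was not tested. Over all settings the log2 fold change of *Lsm8* lay between 0.57 and 0.74, that of *Lsm7* between 0.50 and 0.67, and that of *Lsm4* between 0.47 and 0.66.

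At day 1, 3 of the 9 other members passed as higher, beside 17.3% of all genes tested in either direction and 3.74% as higher. At this day the median of all genes tested was −0.13, so a gene that kept pace with the median would lie below 0. *Lsm4* stood at 384, 429.6 and 399 TPM in wild-type libraries and at 514, 544 and 572 TPM in knockout cells. Its log2 fold change was 0.43, with SE 0.12 and a limma adjusted p of 0.0241. *Lsm2*, a core subunit (ENSMUSG00000007050, chr17:34981862-34985891, plus strand), stood at 65.1, 64.2 and 69.2 TPM in wild-type libraries and at 75.8, 76.5 and 79.0 TPM in knockout cells (0.22, with SE 0.06 and a limma adjusted p of 0.0194). *Lsm3* (ENSMUSG00000034192, chr6:91515928-91522625, plus strand) stood at 56.1, 57.0 and 59.7 TPM in wild-type libraries and at 64.9, 68.0 and 74.0 TPM in knockout cells (0.25, with SE 0.08 and a limma adjusted p of 0.0411). A stretch of 174 exon bases of *Lsm3* is shared with *AC161456.1* on the same strand. *Lsm8*, which was higher in the knockout line at day 0, stood at 31.9, 28.5 and 31.6 TPM in wild-type libraries and at 29.0, 31.7 and 32.9 TPM in knockout cells at day 1, and the groups overlapped (0.02, with SE 0.09 and a limma adjusted p of 0.910). Without wild-type replicate 1 or without knockout replicate 3 of day 1, 0 of the other members passed in limma (3 at an unadjusted p under 0.05), and 1 passed without wild-type replicate 2, wild-type replicate 3 or knockout replicate 2. The log2 fold changes of *Lsm2*, *Lsm3* and *Lsm4* stayed above 0 in all settings tried, at 0.20 to 0.46, 0.20 to 0.49 and 0.36 to 0.67.

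At day 3, 2 of the 9 other members passed as higher, against 7.52% of all genes tested in either direction and 3.96% as higher. *Lsm5*, a core subunit (ENSMUSG00000091625, chr6:56701063-56704710, minus strand), stood at 38.2, 27.7 and 31.6 TPM in wild-type libraries and at 55.8, 53.2 and 62.6 TPM in knockout cells. Its log2 fold change was 0.80 (limma adjusted p = 0.00573, SE 0.16), the largest of any member other than *Usb1*. Among the settings tried, *Lsm5* lost its call only in the fit of the 6 libraries of day 3 alone, at an adjusted p of 0.0524 (limma). *Lsm6* (ENSMUSG00000031683, chr8:78804865-78821140, minus strand) stood at 30.4, 35 and 32.8 TPM in wild-type libraries and at 43.8, 35.7 and 39.1 TPM in knockout cells. The log2 fold change of *Lsm6*, 0.26 (limma adjusted p = 0.0498, SE 0.08), stood at the edge of the threshold. It passed in 6 of 28 other settings, where the adjusted p ran from 0.0191 without knockout replicate 2 of day 3 to 0.247 with the libraries of day 3 alone, and *Lsm6* lost its call with any library of day 1 left out. *Lsm4*, *Lsm7* and *Lsm8*, which passed at day 0, overlapped between the genotypes at day 3, with log2 fold changes of 0.17, −0.01 and −0.08.

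As a sum of the 7 ring mRNAs, the level was 697 and 727 TPM in wild-type and 891 to 988 TPM in knockout cells at day 0. It was 767 to 819 TPM and 917 to 1046 TPM at day 1, and 517 to 632 TPM and 584 to 734 TPM at day 3, where the groups overlapped. *Lsm4* made up 49.99% to 60.4% of the sum in every library. Without *Lsm4* the sums were 322 and 346 TPM against 376 to 424 TPM at day 0, 384 to 392 TPM against 403 to 475 TPM at day 1, and 229.9 to 255 TPM against 277 to 291 TPM at day 3. These sums stand as a description with no test.

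The order of the mRNA levels, which TPM gives per length, was led by *Lsm4* and *Ssb* in each group. In wild-type cells at day 0, *Lsm4* (378 ± 4.65 TPM, SD, n = 2) and *Ssb* (341 ± 1.10) were followed by *Lsm7* (86.9 ± 3.11), *Tut1* (85.2 ± 16.4) and *Lsm2* (83.7 ± 2.54), which did not differ beyond their spread. *Lsm5* (59.5 ± 14.9), *Lsm3* (44.9 ± 3.90), *Lsm6* (43.3 ± 1.94), *Usb1* (38.5 ± 1.99) and *Lsm8* (15.8 ± 0.837) came next, and among these the libraries of *Lsm3* and *Lsm6* overlapped. *Lsm8* was the lowest of the 10 genes in wild-type cells at each day. In knockout cells *Usb1* took the last place, at 16.2 ± 1.47 TPM (SD, n = 3) against 24.8 ± 1.11 for *Lsm8* at day 0. At day 3 in knockout cells *Usb1* (17.4 ± 2.86) and *Lsm8* (18.3 ± 1.3) overlapped. Across the 6 groups, *Usb1* stood highest in wild-type cells of day 1 (52.5 ± 4.21 TPM, SD, n = 3), followed by wild-type cells at day 0 (38.5 ± 1.99, n = 2) and day 3 (33.8 ± 1.94, n = 3). The knockout groups followed at 20.2 ± 1.52 TPM for day 1, 17.4 ± 2.86 for day 3 and 16.2 ± 1.47 for day 0, and neighbours in this order overlapped among the knockout groups. Wild-type day 0 and day 3 did not overlap, but their difference of −0.18 did not pass (limma adjusted p = 0.223).

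Most of these genes changed over the days of RA treatment. No library without RA is listed for day 1 or day 3, so RA and time in culture cannot be told apart. In bulk samples, fewer cells of a type and less RNA per cell cannot be told apart. *Usb1* rose from day 0 to day 1 in wild-type cells (log2 fold change 0.43, with SE 0.12 and a limma adjusted p of 0.0106) and in knockout cells (0.30, SE 0.11, adjusted p = 0.0496). The rise in *Usb1* did not pass when libraries were scaled to an equal median, at 0.23 (adjusted p = 0.0869) in wild-type and 0.22 (adjusted p = 0.0874) in knockout cells, nor in wild-type cells without replicate 2 of day 0 (0.38, adjusted p = 0.0618), and in knockout cells it passed in 13 of 28 other settings. From day 1 to day 3 it fell in wild-type cells (−0.62, with SE 0.11 and a limma adjusted p of 0.000254), whereas the value in knockout cells was −0.21 (SE 0.11, adjusted p = 0.135). In 28 other settings that value ran from −0.42 to −0.10 and passed in 4, namely quantile normalization (−0.41), equal median scaling (−0.42), voom (−0.33) and without knockout replicate 3 of day 3 (−0.32, adjusted p = 0.0209). Without knockout replicate 1 of day 3 it was −0.10 (adjusted p = 0.482). *Tut1* went the other way. Its log2 fold change from day 0 to day 1 was −0.63 in wild-type (limma adjusted p = 0.000171, SE 0.10) and −0.74 in knockout cells (SE 0.09, adjusted p = 2.02e-05). From day 1 to day 3 *Tut1* rose by 0.24 in wild-type (limma adjusted p = 0.0422, SE 0.09) and by 0.27 in knockout cells (SE 0.09, adjusted p = 0.0211). Of 28 other settings, the rise of *Tut1* passed in 17 in wild-type and 22 in knockout cells. It did not pass in wild-type cells with replicate number as a block (0.24, adjusted p = 0.0514) or by voom, nor when any 1 of 8 libraries was left out, with an adjusted p up to 0.141 without wild-type replicate 1 of day 1. In knockout cells it was 0.05 (adjusted p = 0.643) with libraries scaled to an equal median and 0.17 (adjusted p = 0.126) under quantile normalization, and it did not pass by voom or without replicate 2 of day 1 or replicate 2 or 3 of day 3.

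Of the 9 members other than *Usb1*, 3 passed as higher and 2 as lower from day 0 to day 1 in wild-type cells, where 38.0% of all genes tested passed. In knockout cells 3 passed as higher and 1 as lower, where 27.7% of all genes passed. *Lsm8* rose by 0.91 in wild-type cells, the most of the 10 genes (limma adjusted p = 4.14e-06, SE 0.10), and by 0.32 in knockout cells (SE 0.09, adjusted p = 0.0119). *Lsm3* and *Lsm6* rose in both genotypes, by 0.35 and 0.25 in wild-type and by 0.33 and 0.24 in knockout cells, though not with libraries scaled to an equal median. With that scaling 3 of the 9 members passed in wild-type cells, and in knockout cells *Tut1* alone passed, as lower. The rise of *Lsm8* in knockout cells was then 0.23 (adjusted p = 0.175), and it was 0.28 (adjusted p = 0.0541) without knockout replicate 3 of day 1. The rise of *Lsm3* passed in 26 of 28 other settings in wild-type and 27 in knockout cells, and did not pass in wild-type cells without replicate 2 of day 0 (0.27, adjusted p = 0.0632). That of *Lsm6* passed in 20 and 24. In wild-type cells *Lsm6* did not pass with replicate number as a block (0.24, adjusted p = 0.0593) or without replicate 1 of day 0 or replicate 1 or 3 of day 1, nor in knockout cells without replicate 1 of day 0 or replicate 2 or 3 of day 1. The median of all genes tested was 0.17 in wild-type and 0.02 in knockout cells over this span. *Lsm2* fell in wild-type cells, at −0.34 (limma adjusted p = 0.000977, SE 0.07) and had a value of −0.02 in knockout cells (adjusted p = 0.846), a difference between the genotypes of 0.31 that did not pass (adjusted p = 0.0794).

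From day 1 to day 3, all 7 ring genes had values below 0 in both genotypes. As lower, 6 of them passed in wild-type cells and all 7 in knockout cells. The exception was *Lsm4* in wild-type cells, at −0.25 (SE 0.12, limma adjusted p = 0.107). Of the 9 other members, 7 passed as lower and 1 as higher in wild-type cells, where 43.8% of all genes tested passed in either direction and 24.3% as lower. In knockout cells 8 passed as lower and 1 as higher, where 44.9% of all genes passed and 19.4% passed as lower. The single riser in both was *Tut1*. *Lsm5* fell most in wild-type cells, from 78.0, 82.6 and 79.8 TPM to 38.2, 27.7 and 31.6 TPM, a log2 fold change of −1.29 (limma adjusted p = 8.64e-06, SE 0.16). In knockout cells *Lsm5* fell from 74.4, 101 and 106 TPM to 55.8, 53.2 and 62.6 TPM, a change of −0.69 (limma adjusted p = 0.00208, SE 0.16). The median change of the 7 ring genes was −0.64 in wild-type and −0.69 in knockout cells, against −0.07 and 0.04 over all genes tested. Over the whole course from day 0 to day 3, 7 other members passed as lower and 1 as higher in wild-type cells, where 52.1% of all genes passed. In knockout cells 7 passed as lower and 0 as higher, where 51.5% passed. The riser in wild-type cells was *Lsm8*, at 0.28 (limma adjusted p = 0.0252, SE 0.10), which fell in knockout cells (−0.42, SE 0.09, adjusted p = 0.00071). That rise did not pass with libraries scaled to an equal median (0.08, adjusted p = 0.662) or without wild-type replicate 2 of day 0 (0.23, adjusted p = 0.131), and 4 members passed from day 0 to day 3 in wild-type cells without the latter library.

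**Figure D3:**
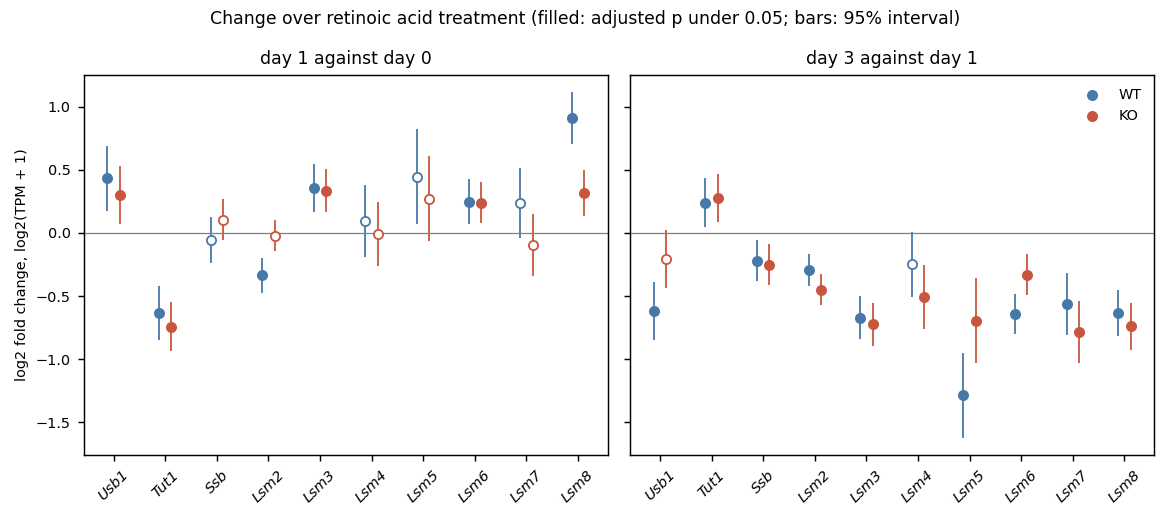
Log2 fold change on the log2(TPM + 1) scale (y axis) for each gene (x axis) from day 0 to day 1 (left panel) and from day 1 to day 3 (right panel) of RA treatment. Wild-type cells are in blue and *Usb1* knockout cells in red, bars are 95% intervals, and filled points passed at adjusted p under 0.05 in limma. *Lsm8* differs most between the genotypes in the left panel, at 0.91 and 0.32, and 9 of the 10 genes lie below 0 in both genotypes on the right, the exception being *Tut1*.

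*Lsm8* was the member whose change over RA treatment differed between the genotypes by a test of the difference. From day 0 to day 1 the change in knockout cells was lower, by a difference of −0.59 (limma adjusted p = 0.0304, SE 0.13), where 2.23% of all genes tested passed. From day 0 to day 3 the difference was −0.70 (limma adjusted p = 0.00612, SE 0.13), where 6.15% passed. Both tests use the same libraries of day 0, where *Lsm8* was higher by 0.62 in knockout cells, and are not separate findings. In knockout against wild-type cells *Lsm8* was at 0.02 at day 1 and −0.08 at day 3. Both wild-type libraries of day 0 had few genes of 1 read. From day 1 to day 3 no member passed, with 2 of the 9 other members at an unadjusted p under 0.05 (*Lsm8* at −0.10, adjusted p = 0.692), against 7.61% of all genes, and the smallest adjusted p was 0.10, for *Lsm6*. *Lsm7* was next over the span from day 0 to day 3, at −0.56 (adjusted p = 0.072, limma), and passed there in 3 of 28 other settings. The difference of *Lsm8* at day 3 against day 0 passed in each of 28 other settings, with values from −0.80 to −0.63. The difference at day 1 passed in 16 of 28, with values from −0.64 to −0.48 and an adjusted p up to 0.196, and it did not pass without wild-type replicate 1 of day 0 (−0.64, adjusted p = 0.0563). Relative to *Lsm1*, its counterpart in the cytoplasmic ring, *Lsm8* was at 0.540 and 0.520 in wild-type libraries and at 0.669 to 0.795 in knockout libraries at day 0. These ratios of TPM were 0.949 to 1.06 and 0.959 to 1.02 at day 1, and 0.607 to 0.687 and 0.549 to 0.601 at day 3. *Lsm1* itself had log2 fold changes of 0.20, 0.03 and 0.10 in knockout against wild-type cells at the 3 days, and none of them passed.

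The 120 bases before the starts of *Usb1* and of 3 ring genes that passed are shown, because *Usb1* shares its upstream region with a divergent neighbour and most ring genes fell between day 1 and day 3. They come from RefSeq (GRCm38.p6), in which 9 of the 10 genes matched. Capitals mark a GC box (GGGCGG) or a CCAAT box (CCAAT) on either strand.
Usb1, chr8:95332164-95332283, plus strand: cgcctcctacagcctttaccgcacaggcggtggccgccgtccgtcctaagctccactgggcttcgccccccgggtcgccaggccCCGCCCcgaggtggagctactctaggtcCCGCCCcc
Lsm5, chr6:56704711-56704830, minus strand: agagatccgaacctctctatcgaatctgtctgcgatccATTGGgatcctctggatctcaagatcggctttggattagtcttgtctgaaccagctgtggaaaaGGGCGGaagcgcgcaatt
Lsm7, chr10:80855210-80855329, minus strand: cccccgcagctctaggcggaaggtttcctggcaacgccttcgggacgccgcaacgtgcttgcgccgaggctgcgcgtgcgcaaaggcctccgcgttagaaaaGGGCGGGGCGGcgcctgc
Lsm8, chr6:18848459-18848578, plus strand: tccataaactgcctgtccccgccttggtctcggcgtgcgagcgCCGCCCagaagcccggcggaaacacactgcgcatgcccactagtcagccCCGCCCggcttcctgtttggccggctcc
In the 250 bases before the RefSeq start, a GC box was present in 7 of the 9 genes and in 32.7% of all 32851 windows of the same length. The CCAAT box was present in 3 of the 9 and in 33.8% of all windows. An ETS core (CCGGAAG) was present in *Usb1* and *Lsm5*, 2 of the 9, and in 6.91% of all windows. None of the 9 held an E-box (CACGTG), a CRE (TGACGTCA) or a TATA box (TATAAA), which 6.02%, 1.55% and 12.4% of all windows held. Both strands were searched, and a match is a description of the letters only.

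Near *Usb1* on chromosome 8, 30 of 46 listed genes whose leftmost base lies within 500 kb of its start passed the filter on low values. *Zfp319*, which starts 334 bases away and is read in the opposite direction, did not pass at any day (log2 fold changes −0.15, −0.22 and 0.05 at days 0, 1 and 3; adjusted p = 0.577, 0.339 and 0.920, limma). Of the 30 genes, 1 passed as higher and 2 as lower at day 0, 0 and 7 at day 1, and 1 and 1 at day 3, where 11.9%, 17.3% and 7.52% of all genes tested passed in either direction. *Kifc3*, a kinesin gene whose start lies at −129 kb, fell at day 0 and at day 1, with log2 fold changes of −0.80 (limma adjusted p = 0.000141, SE 0.09) and −0.80 (SE 0.08, adjusted p = 2.33e-05). At day 3 the value of *Kifc3* was −0.20 (adjusted p = 0.197). On the other side, *Mmp15*, a membrane-type metalloproteinase gene at 19.98 kb, had values of −0.45 at day 0 (adjusted p = 0.0829), −0.71 at day 1 (adjusted p = 0.00384) and −0.32 at day 3 (adjusted p = 0.242, limma).

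**Figure D4:**
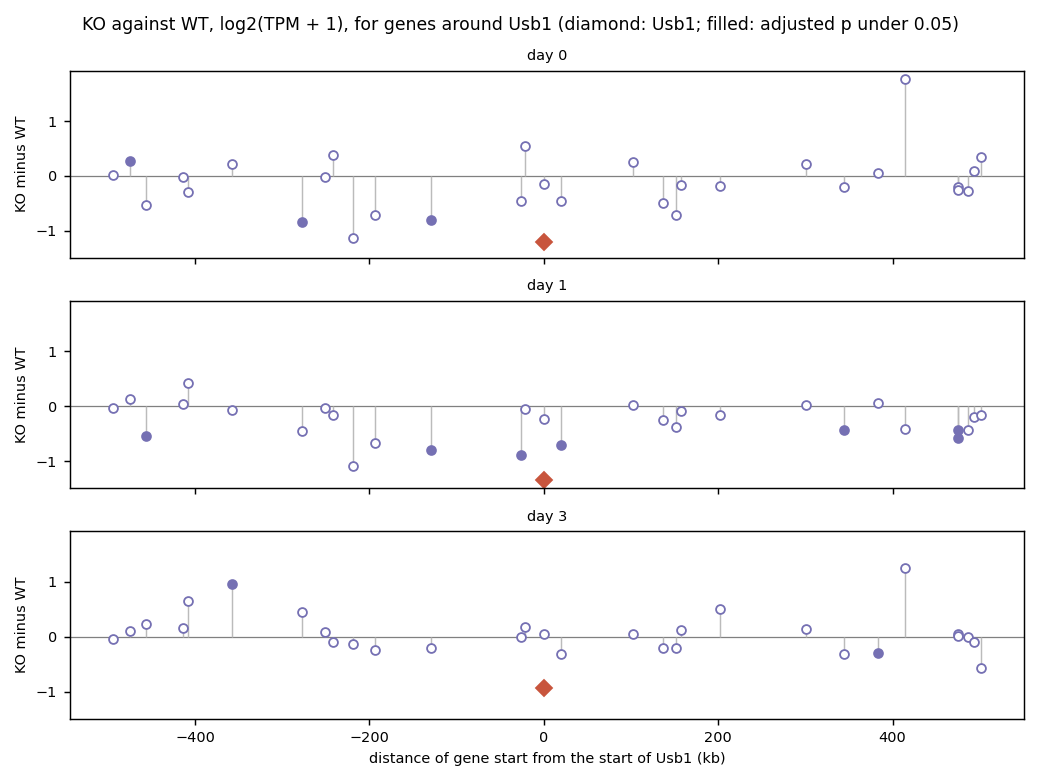
Difference of *Usb1* knockout from wild-type on the log2(TPM + 1) scale (y axis) against the distance of the gene start from the start of *Usb1* in kb (x axis), at day 0, day 1 and day 3. Circles are the 30 neighbours tested, filled where adjusted p was under 0.05 in limma, and the diamond is *Usb1*. *Zfp319*, at −0.334 kb, lies between −0.22 and 0.05 while *Usb1* lies between −1.34 and −0.93.

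Other genes of the pathway were followed in lists set by function. Of 9 genes of the U6 snRNP and U6 modification, 1 passed as higher and 2 as lower in the mean of the 3 days, where 21.5% of all genes tested passed in either direction and 7.26% as higher. *Snu13*, which binds U4 and box C/D RNAs, was higher by 0.19 (limma adjusted p = 0.00251, SE 0.04). *Mepce*, the capping enzyme of U6 and 7SK, was lower, at −0.16 (SE 0.04, adjusted p = 0.02), and *Sart3*, which recycles U6, was also lower, at −0.11 (SE 0.03, adjusted p = 0.0397). The median of this list was 0.03. *Larp7* and *Mettl16*, which take part in the modification of U6, were at 0.01 and 0.03 and did not pass.

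The Sm ring on the other spliceosomal snRNAs was compared as the closest relative of the LSm ring. Of its 7 genes, 2 passed as higher in the mean of the 3 days, where 7.26% of all genes tested passed as higher. They were *Snrpd1* (0.32, with SE 0.06 and a limma adjusted p of 0.00188) and *Snrpd3* (0.25, SE 0.05, adjusted p = 0.00296). The median of the Sm ring was 0.17, against −0.05 over all genes tested, so higher values were not particular to the LSm ring. *Snrpe* was at −0.27 (adjusted p = 0.0935) and *Snrpf* at 0.29 (adjusted p = 0.0523), neither of which passed. Among 6 other LSm genes, *Lsm12* passed as higher (0.17, SE 0.04, adjusted p = 0.00362) and *Lsm14b* as lower (−0.19, SE 0.06, adjusted p = 0.0256), with a median of 0.06.

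Enzymes of RNA 3′-ends were mixed in direction. Of 10 genes for the tailing and trimming of RNA 3′-ends, 1 passed as higher and 2 as lower in the mean of the 3 days, where 21.5% of all genes tested passed. *Dis3l2*, an exonuclease that prefers uridylated RNA, was higher by 0.21 (limma adjusted p = 0.00377, SE 0.04). *Tut4*, a cytoplasmic uridylyl transferase, was lower, at −0.31 (SE 0.08, adjusted p = 0.0105), and *Exosc10*, a nuclear exosome subunit, at −0.10 (SE 0.03, adjusted p = 0.0176). At day 3 *Tut4* was not lower, with 58.9 ± 7.60 TPM (SD, n = 3) in the wild-type and 65.8 ± 13.5 TPM in the knockout libraries. *Tut7*, the paralog of *Tut4*, was at −0.23 (adjusted p = 0.0665) in the mean and passed as lower at day 1 (−0.50, adjusted p = 0.0253). Of 6 genes of the 2H phosphoesterase family or of enzymes that handle cyclic phosphates, *Rtca*, an RNA 3′-phosphate cyclase, passed as higher (0.22, SE 0.07, adjusted p = 0.0399) and *Cnp*, a cyclic nucleotide phosphodiesterase, as lower (−0.16, SE 0.05, adjusted p = 0.0466). *Akap7*, a 2H family member, was at 0.15 (adjusted p = 0.052).

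Of 10 genes for transcription from the U6 promoter, 2 passed as lower in the mean of the 3 days and 0 as higher, where 21.5% of all genes tested passed. They were *Pou2f1*, the Oct-1 factor (−0.40, with SE 0.10 and a limma adjusted p of 0.0127), and *Snapc4*, a SNAPc subunit (−0.22, SE 0.06, adjusted p = 0.0195). At day 3 *Pou2f1* was not lower, with 16.3 ± 3.41 TPM (SD, n = 3) in the wild-type and 17.9 ± 3.63 TPM in the knockout libraries. The list had a median of −0.11. *Rn7sk* and *Rny1* were the tested genes of 8 RNA polymerase III transcripts, and neither passed in knockout against wild-type cells at any day, with values in the mean of −0.28 (adjusted p = 0.618) and 0.13 (adjusted p = 0.836). Few reads lay behind them, 0 to 57 per library for *Rn7sk* and 0 to 3 for *Rny1*. The tests therefore cannot tell whether these RNAs changed. *Rnu6* had 0 reads in every library. No gene of these lists changed by 2-fold or more between the genotypes in the mean of the 3 days.

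**Figure D5:**
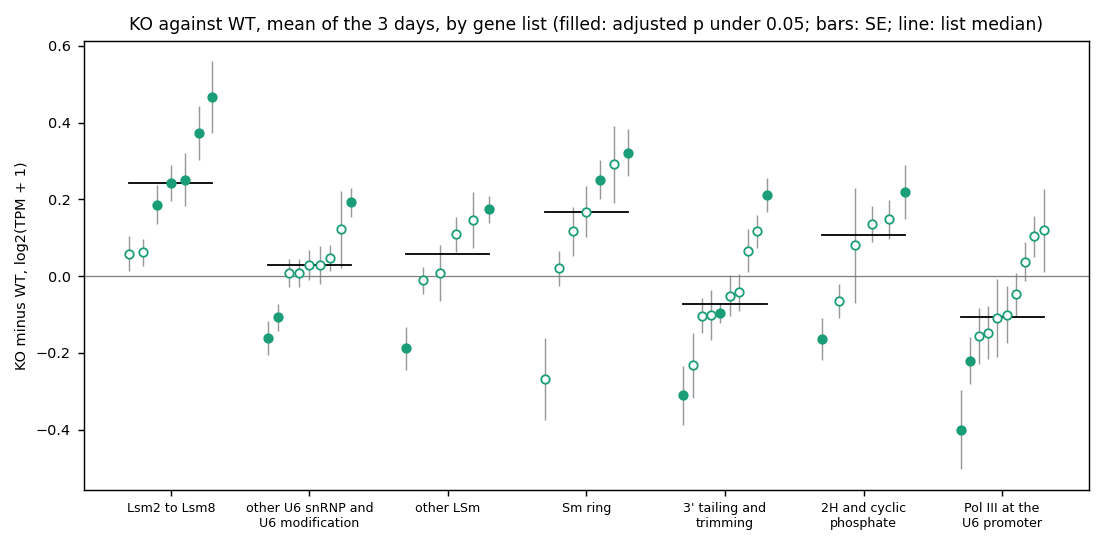
Difference of *Usb1* knockout from wild-type as the mean of the 3 days on the log2(TPM + 1) scale (y axis) for the genes of each list (x axis). Bars are standard errors, lines are list medians, and filled points passed at adjusted p under 0.05 in limma. The ring genes *Lsm2* to *Lsm8* have a median of 0.24 and no value below 0. The other lists plotted have medians from −0.11 to 0.17, the highest being that of the Sm ring, the closest relative of the LSm ring.

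By the likeness of log2(TPM + 1) over the 8 wild-type libraries, the genes closest to *Usb1* among 10217 were *Mynn* (Pearson's r = 0.993), *Sorcs2* (0.988), *Cby1* (0.987), *Ppp2r5e* (0.986) and *Zik1* (0.985). Of the members, *Lsm3* (0.907), *Lsm5* (0.889) and *Lsm6* (0.887) were most like *Usb1* in wild-type cells and *Tut1* (−0.56) least. Over all 17 libraries the closest to *Usb1* were *Gm10451* (0.941), *Ddx59* (0.940), *Adipor1* (0.938), *Slc35g1* (0.932) and *Ddx3y* (0.926), and *Lsm4* (−0.55) was the member least like it. Those closest to *Tut1* over the 17 libraries were *Jak3* (0.971), *Zbtb7a* (0.961), *Ccdc137* (0.959), *Urm1* (0.954) and *Gjc1* (0.95). Among the members, *Lsm3* with *Lsm5* (0.894) and *Lsm4* with *Lsm7* (0.893) were the closest pairs. The libraries of a group share their day and genotype, so these values of r describe patterns over 3 wild-type groups or over 6 groups.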

How the data were processed

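R1/E mouse embryonic stem cells, wild-type or *Usb1* knockout, were analysed in 17 RNA-seq libraries. The authors deposited TPM, calculated from gene length and the reads on each gene, for libraries made with the NEBNext Ultra kit and run on an Illumina NovaSeq instrument. HISAT2 2.1.0, StringTie 1.3.6 and GRCm38.p6 are named in the submitters' processing notes, without their roles. The read counter is not given in the sources used here. DESeq2 served the authors for differential expression, but TPM are not counts, so limma replaced it here.

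TPM were transformed as log2(TPM + 1). The filter was TPM of 1 or more in 2 or more libraries, which 21871 genes passed. A limma 3.58.1 fit (R 4.3.3) with a variance trend estimated the 6 group means. Benjamini-Hochberg adjustment was made within each comparison, and an adjusted p under 0.05 counted as passed. Reads behind each value were recovered from TPM and the exon lengths of GENCODE M21 (GRCm38), with 95.9% to 96.7% of values whole within 0.01, and numbered 15404379 to 17300186 per library. The 95% intervals are those of the difference between group means, with the spread between libraries shared over the 6 groups. Tables and figures were made in Python 3.11.15 (numpy 2.4.6, pandas 2.3.3, matplotlib 3.10.9). The fit was tested on simulated data.

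The members, lists and comparisons were chosen with earlier results of these data known. The genes named are the members, up to 3 genes of each list with the largest change in the mean of the 3 days, neighbours of *Usb1* and the 5 genes closest in pattern among those with a mean of at least 10 TPM. *Snrpd3*, *Sart3*, *Larp7*, *Mettl16*, *Exosc10*, *Eri1* and *Papd5* lie outside this rule and were chosen after their values were seen. *Tent2* and *Tent4b* are listed under the older symbols *Papd4* and *Papd5*. Each value was recomputed with a pseudocount of 0.1, without the filter, with a filter at 5 TPM, after quantile normalization, after scaling to an equal median, with TPM rescaled over protein-coding genes, with robust variances, from the compared libraries by themselves, with replicate number as a block, by voom on recovered reads, and without each library in turn. A last alternative, without both wild-type replicate 1 of day 0 and knockout replicate 1 of day 3, was chosen after seeing the data.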

Additional observations from a re-analysis of the deposited data

Results flagged for a closer look

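The results below differ between the genotypes over RA treatment by a test of the difference itself (limma, Benjamini-Hochberg), and are given as values in log2 units, knockout minus wild-type. *Lsm8* differed by −0.59 from day 0 to day 1 (adjusted p = 0.0304) and by −0.70 from day 0 to day 3 (adjusted p = 0.00612). Both values for *Lsm8* use the same libraries of day 0. *Eri1*, a 3′ exonuclease of histone mRNA, differed by 0.41 from day 0 to day 3 (adjusted p = 0.0415) and by 0.47 from day 1 to day 3 (adjusted p = 0.0125). *Papd5*, a non-canonical poly(A) polymerase, differed by 0.41 (adjusted p = 0.044) and 0.39 (adjusted p = 0.0394) over the same spans. *Tut4* differed by 0.75 (adjusted p = 0.0231) and *Pou2f1* by 0.89 (adjusted p = 0.0384) from day 1 to day 3. Of the neighbours, *Cngb1* differed by 0.89 from day 1 to day 3 (adjusted p = 0.0382), and *Kifc3* by 0.60 from day 0 to day 3 (adjusted p = 0.0148) and by 0.60 from day 1 to day 3 (adjusted p = 0.00759). *Cngb1* lay near the floor, with 15 to 72 reads per library and group means from 0.434 to 1.66 TPM. Among all genes tested, 2.23%, 6.15% and 7.61% passed in these tests from day 0 to day 1, day 0 to day 3 and day 1 to day 3. *Eri1* and *Papd5* were chosen after their values were seen.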

How the results depend on the processing

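*Usb1* was lower in knockout cells at each day and in the mean of the 3 days under all alternatives tried, with log2 fold changes from −1.27 to −1.15, from −1.39 to −1.28, from −1.04 to −0.82 and from −1.19 to −1.12 when each library was left out in turn. The count of other members that passed moved more. At day 3 it was 1, in place of 2, with a pseudocount of 0.1, without the filter and under quantile normalization. The same count came with equal median scaling, robust variances and voom. It also came without both wild-type replicate 1 of day 0 and knockout replicate 1 of day 3. In the libraries of day 3 alone the count was 0 (2 at an unadjusted p under 0.05). At day 0 the count was 0 in the libraries of that day alone. It was 1 without wild-type replicate 1 of day 0 and knockout replicate 1 of day 3 together. Wild-type replicate 2 of day 0, which also had few genes of 1 read, was kept there. From day 0 to day 3 in wild-type cells it was 5 under quantile normalization and 4 in the compared libraries alone. Under equal median scaling it was 3 in wild-type and 1 in knockout cells from day 0 to day 1. For the difference between genotypes from day 0 to day 1 it was 0 under quantile normalization, equal median scaling and voom. It was also 0 without both wild-type replicate 1 of day 0 and knockout replicate 1 of day 3. In each of these, 2 members had an unadjusted p under 0.05. From day 0 to day 3 the count was 2 with TPM rescaled over protein-coding genes. With replicate number as a block, the count was 1 at day 3 and 0 for the difference between genotypes from day 0 to day 1, and no other count moved by over 1.5 times. Same-numbered libraries did not deviate together (r from −0.13 to 0.12 over 40 pairs, median −0.0035), so the numbers were not taken to pair libraries. The cause of these moves was not tested. Leaving out each library gave counts from 1 to 4 at day 0, 0 to 3 at day 1, 1 to 2 at day 3 and 5 in the mean. It gave 4 to 6 and 2 to 4 from day 0 to day 1 in wild-type and knockout cells, 4 to 8 and 6 to 8 from day 0 to day 3, and 6 to 9 and 7 to 9 from day 1 to day 3. For the differences between genotypes it gave 0 to 2, 1 to 2 and 0 to 1. No direction that had passed was reversed. With 2 or 3 libraries a group, differences of the size seen in *Lsm2* and *Lsm3* lie near the limit of what passed.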
